A study of Mus musculus with 6 samples.

Results

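The expression of 10 genes around the thioredoxin-interacting protein TXNIP was followed in RNA-seq libraries of cultured mouse cells, with and without metformin. These were Txnip and its relative Arrdc4, the transcription factor genes Mlxip (MondoA), Mlxipl (ChREBP) and Mlx, and the glucose transporter genes Slc2a1, Slc2a3, Slc2a4, Slc2a6 and Slc2a8. They were chosen by name for their place in glucose sensing, with earlier results of these data known. All 10 were matched by Ensembl identifier among the 55401 genes of the deposited table. The study labels the cultures as female germline stem cells (FGSCs) of strain C57BL/6 after more than 20 passages, grown on STO feeder cells, a mouse fibroblast line. The control group was left untreated (3 libraries), and the metformin group received 1 μM metformin for 24 h (3 libraries). Both groups are described as 1 cell line. The study calls the libraries of a group repeats and states in general that experiments were repeated, but whether each library came from a separate culture is not given in the sources used here, so p-values measure the spread between these libraries, which may be technical.

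MondoA and ChREBP are transcription factors that bind DNA as partners of MLX and become active when glucose 6-phosphate accumulates in the cell. Txnip and Arrdc4, which encode alpha-arrestins, are their best known targets, and TXNIP in turn promotes the removal of glucose transporters from the cell surface and binds thioredoxin. When respiration is blocked, cells speed up glycolysis, glucose 6-phosphate is drawn down and Txnip mRNA is known to fall quickly, and metformin is known to slow respiratory complex I at high doses. Metformin against control therefore asks whether this glucose-sensing branch and its transporters moved at the dose used.

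Values were fragments scaled to gene length and to the mapped fragments of the library (FPKM), as deposited. The depth was estimated at 13400000 to 14050000 fragments per library, so that a gene of 1 kb with 3 fragments, used here as the floor of detection, would have 0.214 to 0.224 FPKM. This floor covers counting error only. The labelled cell type was not borne out by its markers in these libraries. The study reports RT-PCR detection in its line of the same germ cell markers used here, and immunofluorescence for the germ cell protein MVH. The FPKM values conflict with that report for the undetected genes, and the reason was not tested. Every library had 0 FPKM for Dazl, Dppa3 and Pou5f1 among the 6 germ cell markers, and the 6 together summed to 0.48 to 1.38 in the control group and 0.33 to 0.93 FPKM with metformin. All 10 genes shared by blood cells were detected, with a sum of 538 to 544 FPKM in the control group and 540 to 555 with metformin. The 10 mast cell and basophil markers summed to 507 to 539 FPKM and 485 to 499 FPKM, nearly all of it from Kit, Cpa3 and Il1rl1, while Fcer1a, Mcpt4 and Tpsb2 were at 0 in all libraries. The 12 feeder fibroblast markers summed to 1.36 to 1.62 FPKM in the control group and 1.08 to 1.96 with metformin, with Lum at 0. In bulk RNA, fewer cells of a type and less RNA per cell cannot be told apart.

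Promoter windows of RefSeq on GRCm38.p6, from 250 bases before to 50 bases after the annotated start, were at hand for 8 of the 10 genes. The windows of Txnip and Arrdc4 are shown because these 2 targets stood far apart in level, and that of Mlx because it is the shared partner. Capitals mark the E box CACGTG, the E-box variant CACGAG and the motif CCAAT, on either strand. Txnip lies on the plus strand at chr3:96557707-96558006, Arrdc4 on the minus strand at chr7:68749189-68749488 and Mlx on the plus strand at chr11:101087040-101087339.
Txnip: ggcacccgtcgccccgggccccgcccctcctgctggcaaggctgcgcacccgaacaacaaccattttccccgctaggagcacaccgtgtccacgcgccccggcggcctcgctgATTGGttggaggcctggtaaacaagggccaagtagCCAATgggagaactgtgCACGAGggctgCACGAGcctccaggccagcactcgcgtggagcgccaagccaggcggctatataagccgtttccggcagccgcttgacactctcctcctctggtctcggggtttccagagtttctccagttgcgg
Arrdc4: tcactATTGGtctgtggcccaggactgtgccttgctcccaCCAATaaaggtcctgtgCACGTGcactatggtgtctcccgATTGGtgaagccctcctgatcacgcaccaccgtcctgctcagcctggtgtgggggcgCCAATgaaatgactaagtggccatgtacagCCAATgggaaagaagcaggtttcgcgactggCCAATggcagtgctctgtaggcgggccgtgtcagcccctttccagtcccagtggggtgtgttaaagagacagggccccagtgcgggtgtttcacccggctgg
Mlx: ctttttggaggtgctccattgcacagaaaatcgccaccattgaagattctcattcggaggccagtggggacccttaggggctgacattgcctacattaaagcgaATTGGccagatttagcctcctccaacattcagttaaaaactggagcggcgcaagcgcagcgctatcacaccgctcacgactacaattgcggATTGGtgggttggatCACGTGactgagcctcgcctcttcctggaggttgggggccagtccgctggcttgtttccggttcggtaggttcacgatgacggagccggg

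In the Txnip window, CACGAG occurred 2 times in the same orientation with 5 bases between, at positions -85 to -69, counted from the annotated start as 1 (chr3:96557872-96557888). Paired E boxes of this spacing are the known form of the carbohydrate response element. The variant was searched for after the Txnip sequence had been seen. Among 32851 promoter windows of the same length, 2127 (6.47%) held CACGAG or its reverse complement CTCGTG, and 4 (0.0122%) held any pair of the E box and its variant, on either strand, with 5 bases between. The narrower pattern of 2 CACGAG in one orientation, which was read off the Txnip sequence itself, was held by 1 window (0.00304%), that of Txnip. The E box CACGTG, which reads the same on both strands, was present in 7.15% of all windows, and 2 of them 5 bases apart in 0. It was found 1 time each in the windows of Arrdc4 (positions -193 to -188), Mlx (positions -40 to -35) and the upstream start of Mlxipl, in which CACGAG also occurred 1 time. No such letters were found in the windows of Mlxip, Slc2a1, Slc2a6 and Slc2a8.

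CCAAT or its reverse complement ATTGG, the letters to which the factor NF-Y binds, occurred 2 times in the Txnip window and 6 times in the Arrdc4 window. These letters occurred 5 times in the window of Slc2a8 and 2 times each in those of Mlxip, Mlx and Slc2a6. In the Slc2a8 window the hits at -148 to -144 and -145 to -141 overlap, since the stretch CCAATTGG was counted on both strands. In the windows of Slc2a1 and the upstream start of Mlxipl the letters occurred 1 time each, and at the downstream start of Mlxipl 0 times. At least 1 was present in 37.4% of all windows, at least 2 in 11.7% and at least 6 in 0.0791%. The search for CCAAT was not planned beforehand. The limit of 6 is the count of the Arrdc4 window itself, the highest among these genes, so its share is no unbiased measure of rarity. E-box or variant letters and CCAAT letters thus stood together in both alpha-arrestin windows, for Txnip through the variant only. The same held for the windows of Mlx and the upstream start of Mlxipl. The share of all windows that hold both was not counted. A match of letters is a description of the window and not a bound site.

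**Figure D1:**
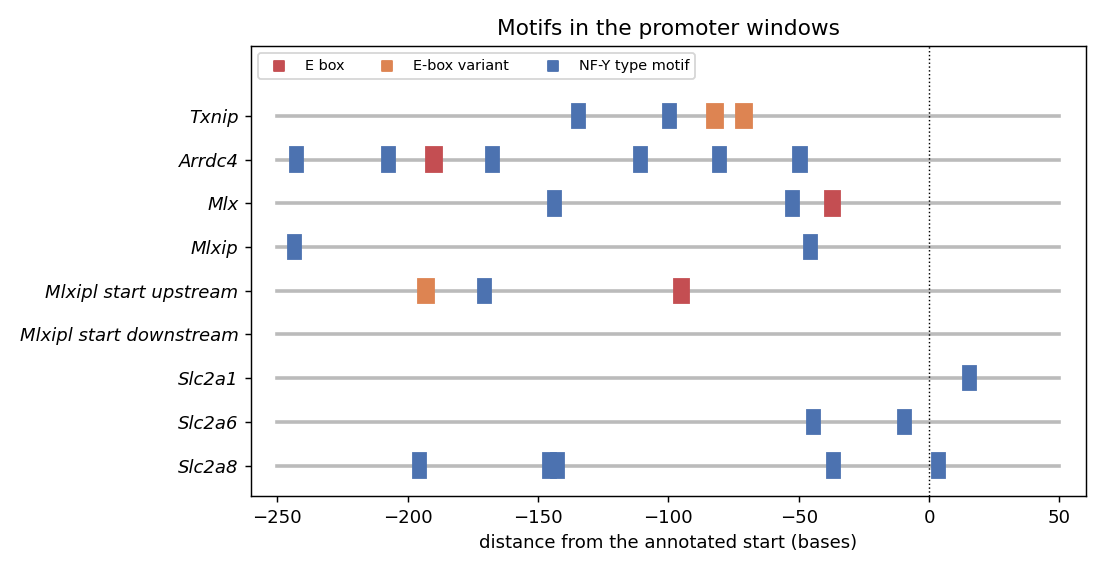
The map places the motifs in the promoter windows by distance from the annotated start in bases, with 1 line per window (the 2 starts of Mlxipl on separate lines). Red boxes are E boxes, orange boxes E-box variants and blue boxes the NF-Y type motif, and Txnip has the only closely spaced orange pair, at -85 to -69. The variant was searched for after the Txnip sequence had been seen.

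Comparing metformin with control on log2(FPKM + 1), a scale that understates the change of low genes, 7 of the 10 genes passed the filter of a mean of at least 1 FPKM (Txnip, Mlxip, Mlx, Slc2a1, Slc2a3, Slc2a6 and Slc2a8). Of these 7, 0 fell below an adjusted p of 0.05 in limma, with the Benjamini-Hochberg method applied over all 10661 tested genes, against 3 of all tested genes (0.0281%). At an unadjusted p under 0.05 the count was likewise 0 of 7, against 10.8% of all tested genes. The groups overlapped for all 7 genes, whereas they did not overlap for 17.0% of all tested genes. The median log2 fold change of the 7 genes was 0.03, beside 0.0041 for all tested genes, with 5 genes above 0 and 2 below, and their adjusted p ranged from 0.750 to 1.00.

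Txnip (ENSMUSG00000038393, GRCm38 chromosome 3 from 96557957 to 96561883, plus strand) had 43.14, 45.18 and 44.75 FPKM in the control libraries and 44.60, 44.78 and 42.43 with metformin. The highest and the lowest control library enclosed 2 of the 3 metformin libraries, and metformin replicate 3 was the lowest of all. The means were 44.4 ± 1.08 and 43.9 ± 1.31 FPKM (SD, n = 3 each). The log2 fold change was -0.01 with a standard error of 0.03 and an adjusted p of 0.908 (limma). Its 95% confidence interval ran from -0.09 to 0.06, which on the scale of FPKM + 1 is a change of -5.89% to 4.28% with metformin. No fall of Txnip was detected, and a fall larger than this bound lay outside the interval.

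The transcript Gm15441 (chromosome 3 from 96555765 to 96566801, minus strand) covers Txnip from end to end on the opposite strand, the paired E-box variants included. It was listed at 0.13, 0.09 and 0.09 FPKM in the control libraries and at 0.30, 0.17 and 0.17 with metformin. The groups did not overlap, with metformin higher (exact permutation test, two-sided, p = 0.1, which is the lowest p possible with 3 against 3). On its exons 3 fragments are worth 0.127 to 0.134 FPKM, so control replicate 1 lay at this floor, the other control libraries under it and the metformin libraries above it. Among all 22809 genes above 0 in any library its adjusted p was 0.643 (limma). This gene was singled out after its values were seen. Groups likewise did not overlap for 17.0% of the 10661 tested genes, a share that was not counted among genes as low as Gm15441. A stranded library kit is named in the labels, a different kit in the methods, and whether strand was used in counting is not given in the sources used here, so fragments of Txnip and Gm15441 cannot be told apart with certainty.

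Arrdc4 (ENSMUSG00000042659, chromosome 7 from 68736995 to 68749241, minus strand), the other alpha-arrestin target, was listed at 0 FPKM in all 3 control libraries. With metformin it was at 0, 0 and 0.02 FPKM, of which the last is worth about 1 fragment on the 3989 bp of its exons in GENCODE M1. Taking 3 fragments per library as the floor, Txnip was at least 769-fold higher than Arrdc4 in each control library. No difference between the groups was detectable for Arrdc4 at this depth (exact two-sided permutation test, p = 1).

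**Figure D2:**
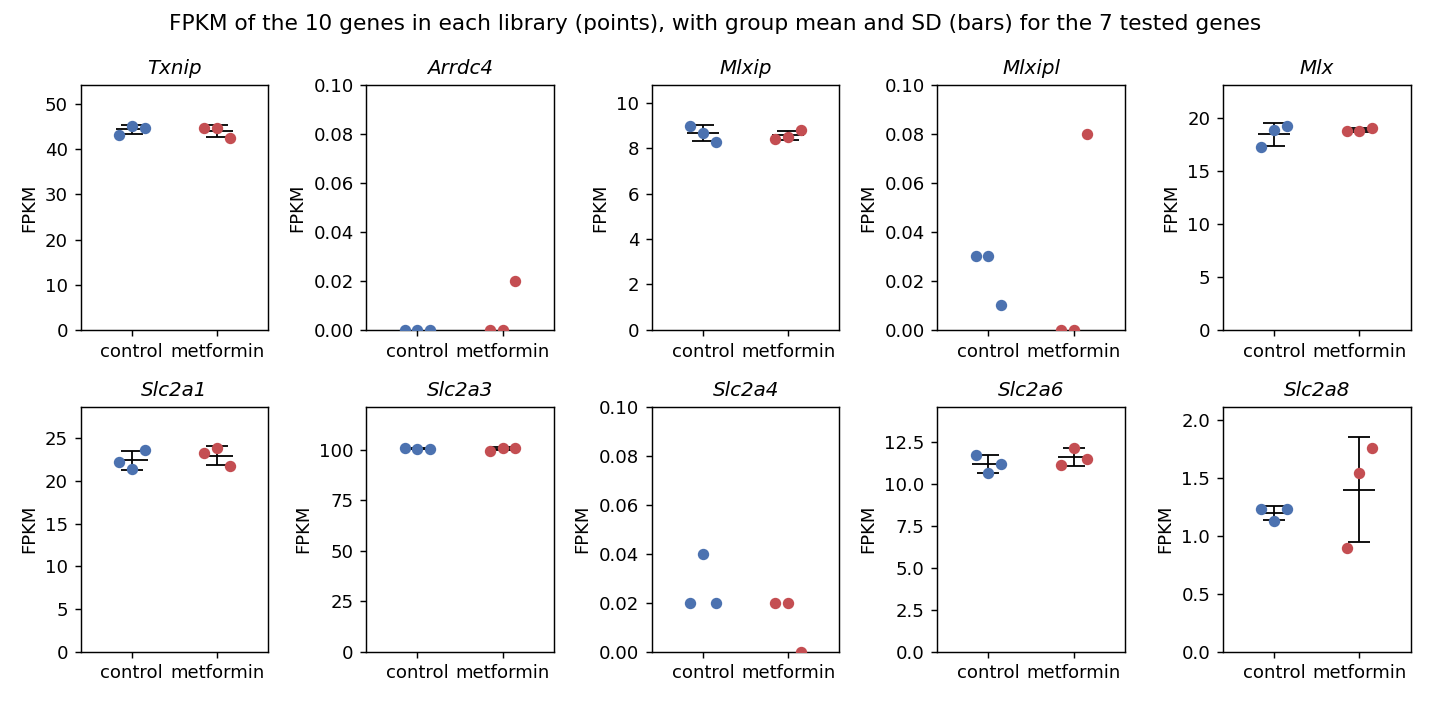
Each panel plots the FPKM of 1 gene in the 3 control (blue) and 3 metformin (red) libraries on a linear axis from 0, and the bars give the group mean and SD for the 7 tested genes. The groups overlap in every panel, and Arrdc4, Mlxipl and Slc2a4 stay at or below 0.08 FPKM.

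Among the transcription factor genes, Mlxip and Mlx were expressed and Mlxipl was at the limit of detection. Mlxip (ENSMUSG00000038342), which encodes MondoA, had 8.98, 8.67 and 8.28 FPKM in the control libraries and 8.39, 8.49 and 8.79 with metformin. The metformin values all fell inside the control range. Its means were 8.64 ± 0.351 and 8.56 ± 0.208 FPKM (SD, n = 3 each), and the log2 fold change of -0.01 had a 95% confidence interval from -0.11 to 0.09 (adjusted p = 0.939, limma). Mlx (ENSMUSG00000017801), the obligate partner, had 17.24, 18.82 and 19.25 FPKM in the control libraries and 18.75, 18.76 and 19.03 with metformin. Control replicate 1 stood below the other 5 libraries, which lay within a narrow range. The log2 fold change of Mlx was 0.03 with a 95% confidence interval from -0.07 to 0.13 (adjusted p = 0.828, limma). The last 385 bp of Mlx overlap Psmc3ip on the opposite strand, which had a mean of 12.1 FPKM.

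Mlxipl (ENSMUSG00000005373), which encodes ChREBP, the form of liver and fat, was listed at 0.03, 0.03 and 0.01 FPKM in the control libraries and at 0, 0 and 0.08 with metformin. On its 5369 bp of exons 3 fragments are worth 0.0404 FPKM, so 5 of the 6 libraries were under the floor and no difference was detectable (exact two-sided permutation test, p = 1). Mlxip had the higher FPKM of the 2 sensor genes in every library. The ratio of Mlx to Mlxip FPKM was 2.14 ± 0.204 in the control group and 2.20 ± 0.0354 with metformin (SD, n = 3 each, exact two-sided permutation test, p = 0.8).

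**Figure D3:**
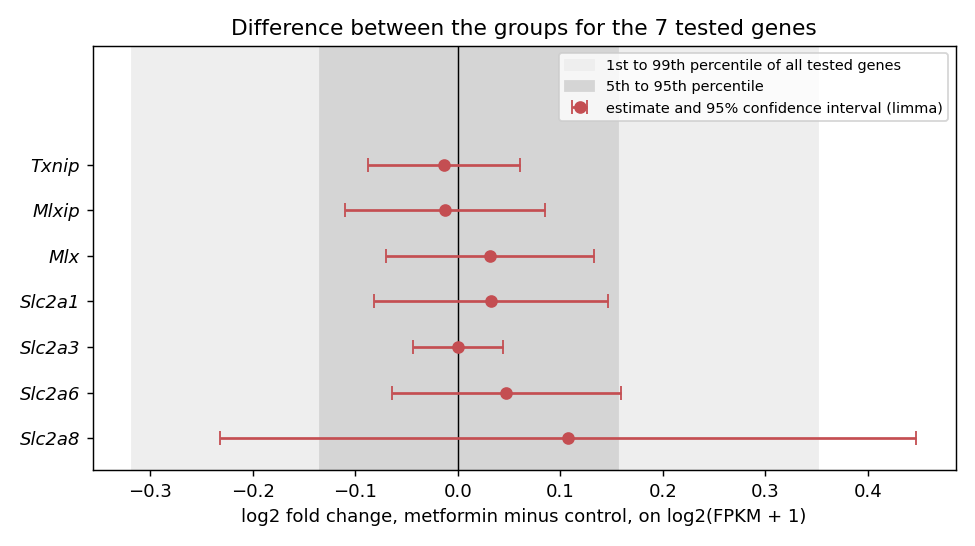
Points are the log2 fold changes of the 7 tested genes, metformin minus control on log2(FPKM + 1), with 95% confidence intervals from limma as bars, and the grey bands span the 5th to 95th and the 1st to 99th percentile of all tested genes. Every interval includes 0, the narrowest being that of Slc2a3 (-0.04 to 0.04) and the widest that of Slc2a8 (-0.23 to 0.45).

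Of the glucose transporters, Slc2a3 was by far the highest. Slc2a3 (ENSMUSG00000003153, chromosome 6 from 122727809 to 122801640, minus strand) encodes GLUT3, a high-affinity transporter best known from neurons and also used by white blood cells. It had 100.81, 100.51 and 100.59 FPKM in the control libraries and 99.66, 101.05 and 101.21 with metformin. All 6 values lay within 1.55 FPKM of each other. The means were 101 ± 0.155 and 101 ± 0.852 FPKM (SD, n = 3 each), and the difference of the means was 0.00333 FPKM. With a log2 fold change of 1.45e-05 and a 95% confidence interval from -0.04 to 0.04, Slc2a3 ranked 10658 by p among the 10661 tested genes (adjusted p = 1.00, limma). The gene ENSMUSG00000107066, with a mean of 2.48 FPKM, overlaps 742 bp of the span of Slc2a3 on the same strand.

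Slc2a1 (ENSMUSG00000028645, chromosome 4 from 119108711 to 119137983, plus strand) encodes GLUT1, the transporter of most dividing cells. It had 22.21, 21.46 and 23.68 FPKM in the control libraries and 23.27, 23.94 and 21.74 with metformin. Both groups spanned nearly the same range. The log2 fold change was 0.03 with a 95% confidence interval from -0.08 to 0.15 (adjusted p = 0.849, limma). The span of Slc2a1 overlaps Gm12868 and Gm12867 on the opposite strand, with means of 0.317 and 0.343 FPKM. On the same strand it overlaps 66 bp of Mir1957, with a mean of 1.095 FPKM. Slc2a6 (ENSMUSG00000036067), which encodes GLUT6, a transporter of lysosomal membranes, had 11.73, 10.68 and 11.23 FPKM in the control libraries and 11.14, 12.19 and 11.53 with metformin. Only metformin replicate 2 exceeded the control range. Its log2 fold change was 0.05 with a 95% confidence interval from -0.06 to 0.16 (adjusted p = 0.750, limma).

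Slc2a8 (ENSMUSG00000026791, chromosome 2 from 32972990 to 32982083, minus strand) encodes GLUT8, which also stays inside the cell. It had 1.23, 1.13 and 1.23 FPKM in the control libraries and 0.89, 1.54 and 1.76 with metformin. The control libraries lay close together, whereas metformin replicate 1 was below all of them and the other metformin libraries were above. The SD was 0.0577 FPKM in the control group and 0.452 with metformin (n = 3 each). The log2 fold change of 0.11 had a 95% confidence interval from -0.23 to 0.45 (adjusted p = 0.824, limma), and it rested on single libraries, being 0.27 without metformin replicate 1 and -0.0034 without metformin replicate 3. Slc2a4 (ENSMUSG00000018566), which encodes the insulin-regulated GLUT4 of muscle and fat, was listed at 0.02, 0.04 and 0.02 FPKM in the control libraries and at 0.02, 0.02 and 0 with metformin. All 6 values were below the 0.0765 FPKM that 3 fragments are worth on its exons (exact two-sided permutation test, p = 0.6). The 6 muscle and fat markers summed to 0.12 to 0.24 FPKM in the control group and 0.07 to 0.18 with metformin.

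Over the 12 Slc2a genes of the mouse that were listed, Slc2a3 held 73.5% ± 0.787 of the summed FPKM in the control group and 73.0% ± 0.780 with metformin (SD, n = 3 each, exact two-sided permutation test, p = 0.5). Slc2a1 held 16.4% ± 0.670 and 16.7% ± 0.730, Slc2a6 8.19% ± 0.315 and 8.42% ± 0.262, and Slc2a8 0.873% ± 0.0325 and 1.01% ± 0.323. The summed FPKM was 137 ± 1.57 in the control group and 138 ± 2.00 with metformin (exact two-sided permutation test, p = 0.6). The ratio of Slc2a3 to Slc2a1 FPKM was 4.49 ± 0.222 and 4.39 ± 0.235 (exact two-sided permutation test, p = 0.7). No difference between the groups was detected in the total, in the share of Slc2a3 or in this ratio. With 3 against 3 libraries this test cannot give a p under 0.1, so it could detect little. The share of Slc2a8 had the larger SD with metformin. Slc2a9, which encodes a urate transporter of the family, had 1.54, 1.28 and 1.28 FPKM in the control libraries and 1.28, 1.38 and 1.14 with metformin (adjusted p = 0.839, limma). The remaining members of the family, Slc2a2, Slc2a5, Slc2a7, Slc2a10, Slc2a12 and Slc2a13, stayed at or below 0.09 FPKM in every library.

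**Figure D4:**
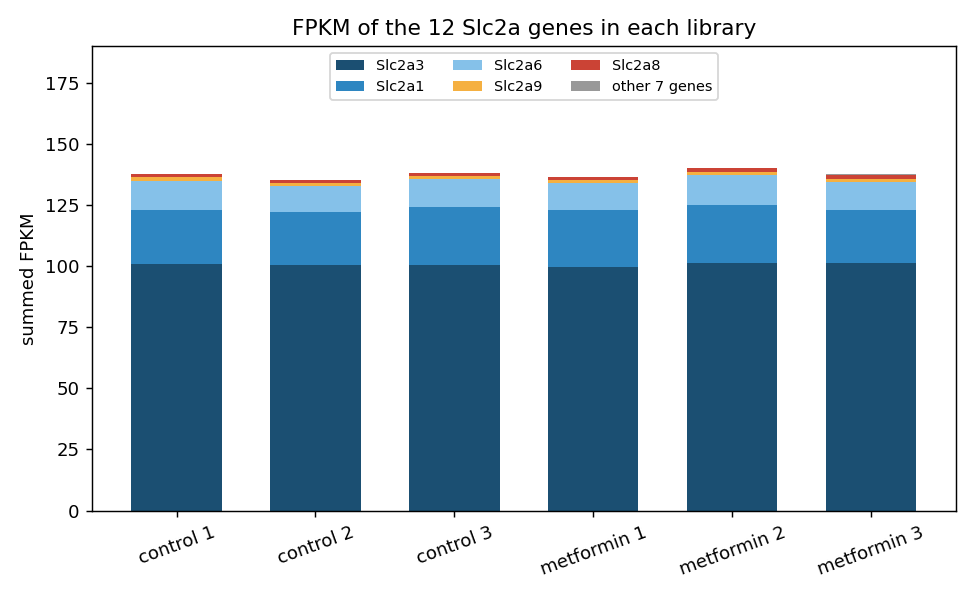
Stacked bars give the FPKM of the 12 Slc2a genes in each library on a linear axis from 0, with the 5 highest genes in colour and the other 7 in grey. The bars reach 135 to 140.2 FPKM in all 6 libraries, and Slc2a3 makes up 72.1% to 74.4% of each.

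Set in order of their control means, the 10 genes were Slc2a3, Txnip, Slc2a1, Mlx, Slc2a6, Mlxip, Slc2a8, Slc2a4, Mlxipl and Arrdc4. For each of the first 7, the lowest library was above the highest library of the next gene, over all 6 libraries. Slc2a4, Mlxipl and Arrdc4 overlapped and could not be ordered. The genes whose pattern over the 6 libraries was nearest to that of Txnip were Hsf2, Ggct and Rpl35a, with a root mean square difference of 0.00936, 0.0112 and 0.0119 between log2(FPKM + 1) values centred on each gene's mean. The pattern they shared was small, since Txnip itself varied by 0.0322 on this scale, and Hsf2, Ggct and Rpl35a had log2 fold changes of -0.01, 0.00016 and -0.03.

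Other genes of the pathway were read from the same fit, as 7 lists written from general knowledge with earlier results of these data known. Of their 65 tested genes, 0 had an adjusted p under 0.05. An unadjusted p under 0.05 was found for 8 of the 65 (12.3%), near the 10.8% of all tested genes. Among 11 other sugar transporters 3 were tested, with 2 above 0 and 1 below, a median log2 fold change of 0.03 and 0 with an unadjusted p under 0.05. The highest of them, Slc50a1, which encodes a Golgi sugar transporter, had 17.1 ± 1.10 FPKM in the control group and 18.4 ± 0.593 with metformin (SD, n = 3 each). Among 6 other arrestin-domain genes 5 were tested, with 4 above 0, a median of 0.03 and 0 with an unadjusted p under 0.05. Arrdc3, another alpha-arrestin gene and the one with the lowest p, had 0.947 ± 0.275 and 1.24 ± 0.197 FPKM, and the beta-arrestin gene Arrb2 had 34.0 ± 0.900 and 34.6 ± 0.799 FPKM (SD, n = 3 each).

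Of 20 other genes described as targets of MondoA or ChREBP, 12 were tested, with 5 above 0 and 7 below and a median log2 fold change of -0.0026. An unadjusted p under 0.05 was found for 3 of them (25.0%, beside 10.8% of all tested genes), all higher with metformin. Bhlhe40, which encodes a transcriptional repressor of the clock, had 17.0 ± 0.488 FPKM in the control group and 18.7 ± 0.701 with metformin (log2 fold change 0.13, adjusted p = 0.350, limma). Tkt, the transketolase of the pentose phosphate pathway, had 110 ± 1.76 and 116 ± 4.36 FPKM (adjusted p = 0.404, limma). Klf10, named after its values were seen, had 6.13 ± 0.393 and 6.86 ± 0.310 FPKM (adjusted p = 0.432, limma). Of the 20 genes, 4 were listed at 0 in all libraries, among them the liver genes Pklr and G6pc.

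TXNIP binds thioredoxin, and all 11 genes of the thioredoxin list were tested, with 7 above 0 and 4 below and a median log2 fold change of 0.05. An unadjusted p under 0.05 was found for 2 of them (18.2%, beside 10.8% of all tested genes). The 11 genes include Nlrp3, an inflammasome gene rather than one of the thioredoxin system. Its log2 fold change of 0.12 was the largest of the list (adjusted p = 0.662, limma). Txn1, thioredoxin itself, had 393 ± 5.91 FPKM in the control group and 380 ± 6.64 with metformin (log2 fold change -0.05, adjusted p = 0.456, limma). Prdx5, a peroxiredoxin, had 40.0 ± 1.27 and 43.1 ± 0.471 FPKM (log2 fold change 0.10, adjusted p = 0.350, limma). The ratio of Txn1 to Txnip FPKM was 8.86 ± 0.194 and 8.64 ± 0.110 (SD, n = 3 each, exact two-sided permutation test, p = 0.2).

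Of 12 genes that make, use or interconvert glucose 6-phosphate or regulate these steps, 8 were tested, with 6 above 0 and 2 below and a median log2 fold change of 0.02. The highest and the one with the lowest p was Gpi1, which interconverts glucose 6-phosphate and fructose 6-phosphate. It had 67.7 ± 0.941 FPKM in the control group and 71.4 ± 1.10 with metformin (adjusted p = 0.367, limma). Gpi1 was the only gene of the list with an unadjusted p under 0.05 (12.5%, beside 10.8% of all tested genes). Of 10 partners of MAX and MLX 7 were tested, with 6 above 0, 1 below and a median of 0.03. An unadjusted p under 0.05 was found for 2 of the 7 (28.6%, beside 10.8% of all tested genes). Myc went from 173 ± 2.71 to 188 ± 2.06 FPKM (log2 fold change 0.12, adjusted p = 0.283, limma), and Mga, named after its values were seen, from 8.62 ± 0.125 to 8.03 ± 0.206 FPKM (log2 fold change -0.09, adjusted p = 0.444, limma). All 19 genes of glucose transporter trafficking were tested, with 10 above 0 and 9 below, a median of 0.0031 and 0 with an unadjusted p under 0.05. The retromer gene Vps35 had 24.3 ± 0.465 and 23.4 ± 0.605 FPKM and the kinase gene Akt1 had 100.1 ± 1.28 and 100.4 ± 1.46 FPKM (SD, n = 3 each).

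**Figure D5:**
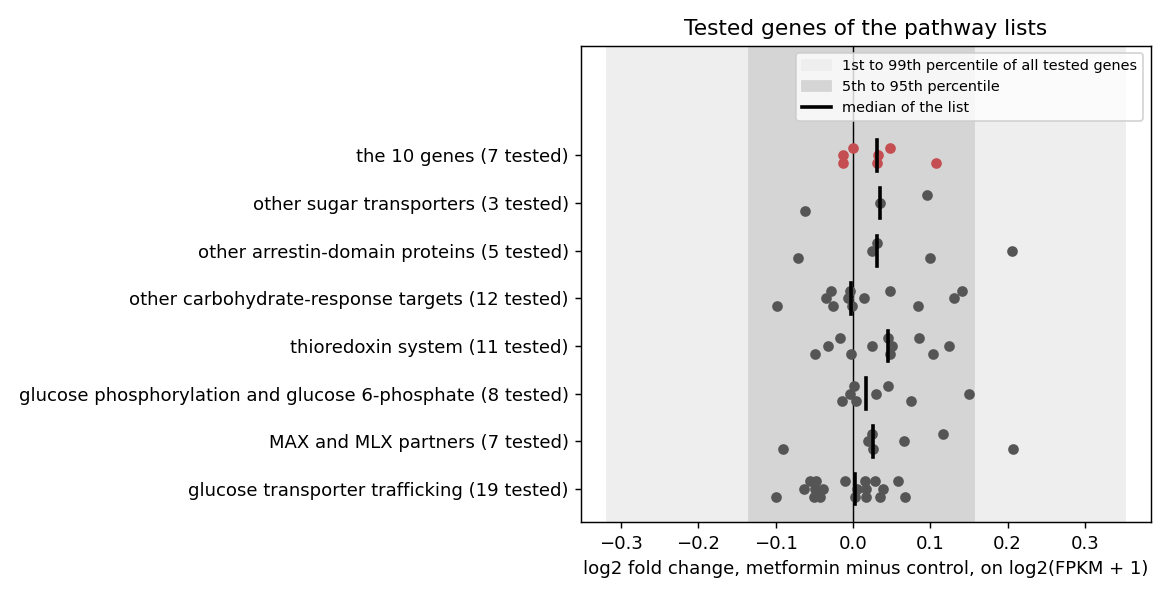
Each point is 1 tested gene of a list, placed by its log2 fold change (metformin minus control on log2(FPKM + 1)), with the median of the list as a black bar and the grey bands as the 5th to 95th and 1st to 99th percentile of all tested genes. The medians of the 8 rows lie between -0.0026 and 0.05, and no point lies outside the band of the 1st to 99th percentile.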

How the data were processed

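RNA-seq of 3 control libraries and 3 metformin libraries was analysed. The authors deposited FPKM values for 55401 genes, rounded to 2 decimals. The submitters' processing notes name HISAT2, DESeq2 and mm9, without roles, whereas the positions of 99.5% of 23288 genes overlapped the gene of the same symbol on GRCm38.p6, and these were used. The counter is not given in the sources used here. Groups follow the treatment label of each library. The 10 genes and the lists were chosen with earlier results of these data known.

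The 10661 genes averaging 1 FPKM or more were compared as log2(FPKM + 1) with limma 3.58.1 in R 4.3.3 (eBayes with a trend, two-sided, Benjamini-Hochberg over all tested genes, threshold 0.05). The code of the fit was checked on simulated, independent normal values, which is no support for the results given here. FPKM holds no counts, so no count test was run. Depth came from the FPKM steps of single-exon genes under 400 bp, 337 to 369 values per library, all within 0.1 of a whole fragment. Fragment floors used exon lengths of GENCODE M1 (NCBIM37). For each list, the gene with the lowest p and the highest gene were named, and the 3 genes nearest to Txnip. No per-sample column was left unused (0). Alternatives were another pseudocount, filter, scaling or spread, a replicate block and each library left out. Figures used matplotlib 3.10.9.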

Additional observations from a re-analysis of the deposited data

How the results depend on the processing

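The number of genes called among all tested genes was 3, and 2 to 4 under every alternative run except testing all 22809 genes above 0 in any library, which gave 7. None of the 7 tested members reached an adjusted p under 0.05 under any of the 89 alternative values, the lowest being 0.467 (Slc2a8 without metformin replicate 1). Directions were not stable for 5 genes. The log2 fold change of Slc2a3 was -0.0045 after rescaling to the same sum and -0.0076 after quantile normalization. When single libraries were dropped, log2 fold changes for Txnip ranged from -0.033 to 0.011 (above 0 without metformin replicate 3), those of Mlxip from -0.040 to 0.012 and of Mlx from -0.014 to 0.062 (both turned without control replicate 1), those of Slc2a3 from -0.0040 to 0.0070 and of Slc2a8 from -0.0034 to 0.27, while Slc2a1 (0.0019 to 0.070) and Slc2a6 (0.015 to 0.078) stayed above 0. Libraries with the same replicate number did not deviate together (r from -0.0317 to 0.0479 across genes), and the replicate block gave 2 called genes. The lower bound of Txnip over Arrdc4 was 829-fold without control replicate 1. No ratio of Mlxip to Mlxipl was formed, since Mlxipl lay under the floor in 5 of the 6 libraries. The depth limits Arrdc4, Mlxipl, Slc2a4 and Gm15441.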

Other observations

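The genes nearest in pattern to Slc2a8 were looked for after its uneven metformin values had been seen. By the same root mean square difference as for Txnip, they were Txnrd2 (0.0308), ENSMUSG00000116972 (0.0380) and Nlrp10 (0.0550). Txnrd2, which encodes the mitochondrial thioredoxin reductase, had 2.10, 2.04 and 2.16 FPKM in the control libraries and 1.70, 2.41 and 2.86 with metformin. ENSMUSG00000116972 had 15.36, 14.46 and 15.47 FPKM and then 13.38, 18.63 and 18.77. Nlrp10 had 1.39, 1.35 and 1.49 FPKM and then 1.19, 1.68 and 1.85. That they share the library order of Slc2a8 follows from this choice among 10661 genes. None was called between the groups (adjusted p = 0.850, adjusted p = 0.699 and adjusted p = 0.816, limma).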
